A study of Mus musculus with 8 samples.

Results

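Keratins are the intermediate filament proteins of epithelia, and thymic epithelial cells (TEC) have long been sorted into cortical and medullary cells by the keratins they stain for. The 9 keratin genes Krt5, Krt14, Krt15, Krt17, Krt8, Krt18, Krt19, Krt7 and Krt10 were taken by name from the 55487 genes of the RNA count table, and their levels were followed across TEC subtypes and 2 ages. All 9 were found by their Ensembl identifiers, and all 9 passed the filter on low counts in the test between surface phenotypes.

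Stroma of C57BL/6 thymi was studied by CITE-seq, in which single cells are captured in droplets to read the mRNA of each cell together with DNA tags carried by antibodies or lectins. Cells of mice aged 1 week or 16 weeks first had CD45-positive cells depleted, then received 27 tagged reagents, and were sorted for CD45-negative Ter119-negative cells as a mixture that was mostly EpCAM1-positive and partly EpCAM1-negative. Per the study's methods, cells came from 6 thymi at 1 week and 3 at 16 weeks, were sorted into a tube and were loaded on 2 wells. This was read as 1 pool per age, so that the 4 RNA libraries were wells 1 and 2 of each pool. The labels name no transgene and no treatment. The spread between wells covers capture and library preparation but not mice, and for this reason no test between the ages was made. The sort fixed the shares of epithelial and other cells, and these shares are not read as results.

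The libraries held 1430 to 4738 cells and 21281389 to 45480790 unique molecular identifiers (UMIs, counted mRNA molecules), with a median of 6668.5 to 8690.5 UMIs per cell. After removal of 253 predicted doublets, clusters made without any keratin gene gave 6074 TEC, 2045 at 1 week and 4029 at 16 weeks, and 15 cell barcodes occurred in more than 1 library. Clusters were named from marker genes. Cortical TEC (cTEC, 1261 cells at 1 week and 152 at 16 weeks) held Psmb11, the thymus-specific proteasome subunit, at 1080 and 1150 CPM (UMIs per 1000000 UMIs), against 24.4 in 16-week Ccl21a TEC. Ccl21a TEC (166 and 1578 cells) held the T-cell attracting chemokine Ccl21a at 13100 CPM at 16 weeks, against 1440 in 16-week cTEC. Aire TEC (122 and 875 cells) held Aire, the regulator of tissue-restricted antigen expression, at 965 at 16 weeks. Ackr4 Fmod TEC (13 and 807 cells), cycling TEC (289 and 281 cells) and 8 classes of mimetic TEC, which take on programmes of peripheral cell types, completed the named set. A further 168 and 55 TEC stayed unnamed and entered the surface-tag gates but no class. Of the mimetic classes the tuft-like cells were the most numerous, with 1 cell at 1 week and 112 at 16 weeks, and the mimetic classes together held 26 and 281 cells. They were therefore described at 16 weeks alone. The neuroendocrine mimetic class joined a cluster of 21 cells led by Pth, the parathyroid hormone gene, and Chga, which held 3 of 9 markers, and one of 15 cells led by Scg2, which held 8 of 9.

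A keratin filament is built from pairs of a type I (acidic) and a type II (basic) keratin. The pair of KRT5 and KRT14 is typical of basal cells of stratified epithelia, whereas the pair of KRT8 and KRT18 is typical of simple epithelia, and in the thymus the first pair has served as a medullary stain and the second as a cortical stain. KRT15 and KRT17 are further type I keratins of basal and activated epithelium, KRT7 and KRT19 are keratins of simple and ductal epithelium, and KRT10 belongs to differentiating epidermis.

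The 9 genes lay in the keratin clusters of chromosomes 11 and 15 (GRCm38, GENCODE annotation). The type I genes Krt10 (chr11:99385254-99389364, minus strand), Krt15 (chr11:100131758-100135928, minus), Krt19 (chr11:100140810-100148665, minus), Krt14 (chr11:100203162-100207548, minus) and Krt17 (chr11:100256217-100261029, minus) spanned 875776 bases. The type II genes Krt7 (chr15:101411043-101430313, plus), Krt5 (chr15:101707070-101712898, minus) and Krt8 (chr15:101996698-102004482, minus) lay on chromosome 15. The type I gene Krt18 (chr15:102028180-102032027, plus) lay beside them, with 23697 bases between it and its partner Krt8. Krt8 and Krt18 were thus the single pair of partners among the members with both genes in 1 cluster.

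The 100 bases before the annotated start were read from RefSeq promoter windows (GRCm38.p6) for the genes that lead the basal, the epidermal and the simple keratins. A match to TATAAA or ATAAAA on the gene's strand, searched from 40 to 20 bases before the start, is in capitals.
Krt5 (chr15:101712906-101713005, minus strand): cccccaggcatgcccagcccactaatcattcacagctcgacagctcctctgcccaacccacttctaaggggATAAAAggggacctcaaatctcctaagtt
Krt10 (chr11:99389365-99389464, minus strand): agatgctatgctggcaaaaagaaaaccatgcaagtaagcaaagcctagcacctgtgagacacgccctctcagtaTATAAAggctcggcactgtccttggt
Krt8 (chr15:102004343-102004442, minus strand): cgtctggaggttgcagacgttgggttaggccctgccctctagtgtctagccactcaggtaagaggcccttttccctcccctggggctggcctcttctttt
Krt18 (chr15:102028116-102028215, plus strand): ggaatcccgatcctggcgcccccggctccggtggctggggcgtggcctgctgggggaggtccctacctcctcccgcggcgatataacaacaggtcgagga

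Krt5 held ATAAAA 29 bases and Krt10 held TATAAA 26 bases before the start, and the windows of Krt8 and Krt18 held neither. Either motif stood at this place in 3.15% of 27025 promoters. The RefSeq start of Krt8 lay 140 bases and that of Krt18 36 bases from the 5′ end of the gene in the GENCODE annotation, so the windows depend on the start chosen, and no factor is inferred from them. For Krt7, Krt14, Krt15, Krt17 and Krt19 no window is printed.

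Levels are given as CPM of a class in a well. Each UMI stands for the 3′ end of an mRNA molecule, so that levels of different genes were compared without division by gene length. Krt18 gave 42.4%, Krt8 29.0% and Krt17 14.1% of the keratin UMIs of TEC, followed by Krt5 (5.07%), Krt14 (4.26%) and Krt7 (2.98%). Krt19 (0.467%), Krt10 (0.328%) and Krt15 (0.189%) were rare. These shares pooled classes and ages, and 1-week cTEC gave 247909 of the 366982 Krt18 UMIs and 155309 of the 251133 Krt8 UMIs. In 16-week Ccl21a TEC Krt17 led (27390 UMIs), followed by Krt5 (19700), Krt14 (18997), Krt18 (16729) and Krt8 (12689). The members held 98.8% of the 866460 keratin UMIs in TEC. Keratins took 1.72% of all UMIs of 1-week cTEC and 1.42% of 16-week cTEC, 0.884% in 16-week Ccl21a TEC and 0.436% in 16-week Aire TEC. They also gave 0.137% of the UMIs of fibroblasts at 1 week and 0.0704% at 16 weeks, a cell type that should lack them. The level in fibroblasts and in the shallow haematopoietic cells is therefore given beside the TEC levels as a background. The 2 were not 1 level. The haematopoietic cluster held 10 of 11 haematopoietic and 6 of 11 epithelial markers. Prss16, a cTEC protease gene, stood at 2470 CPM in haematopoietic cells and at 304 in fibroblasts at 1 week, and Psmb11 at 368 and 78.8. The source of these UMIs was not tested. Since the classes are RNA clusters and share the pools, their levels are descriptions with no test.

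Krt5 and Krt14, the basal pair, had their highest levels in Ccl21a TEC, for Krt5 with keratinocyte-like cells not apart from them (1700 and 1510 over both wells). The keratinocyte-like wells, with 2 and 18 cells, differed widely in Krt5 (mean 876, SD 1060). Gut and liver mimetic TEC came second for Krt14 (1040, from wells of 355 and 1230). At 16 weeks Krt5 stood at 1590 and 1760 CPM (wells 1 and 2) in Ccl21a TEC, at 1280 and 1230 in Ackr4 Fmod TEC, at 494 and 645 in cTEC and at 151 and 196 in Aire TEC. The wells of these 4 classes did not overlap in the classes as drawn here, but without correction between libraries the log2 difference of Ccl21a TEC minus cTEC in Krt5 turned from 1.56 to -0.193. Fibroblasts held 69.8 and 86.5 and haematopoietic cells 99.1 and 116, so that Aire TEC, tuft-like cells (196 and 159) and microfold-like cells (98.7 and 117) were near this background. Krt14 showed a different order below the top. Ccl21a TEC held 1520 and 1700, Ackr4 Fmod TEC 875 and 914 and Aire TEC 246 and 267, and cTEC were the lowest of the 13 TEC classes in the pooled level (137, exact Poisson 95% interval 123 to 152). This interval overlapped those of microfold-like cells (110 to 188), neuroendocrine mimetic TEC (120 to 207) and tuft-like cells (139 to 187). The Krt14 wells of cTEC (122 and 141) stood beside 108 and 118 in endothelial cells and 117 and 120 in haematopoietic cells. This low Krt14 level of cTEC depended on how the class was drawn, since the log2 difference of Ccl21a TEC minus cTEC was 3.62 here but 0.72 without correction and 1.94 with a marker level of 0.1.

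Krt8 and Krt18, the simple pair, were highest in cTEC. Krt8 stood at 3990 and 4810 in 16-week cTEC against 1100 and 1090 in Ccl21a TEC, 1140 and 1290 in Aire TEC, 1390 and 1300 in Ackr4 Fmod TEC and 1920 and 2330 in tuft-like cells. Krt18 stood at 5830 and 7640 in cTEC, 1490 and 1420 in Ccl21a TEC, 789 and 902 in Aire TEC and 2160 and 2620 in tuft-like cells. Fibroblasts held 130 and 147 of Krt8 and 116 and 138 of Krt18, and haematopoietic cells 461 and 489 of Krt8 and 612 and 545 of Krt18. Aire TEC were thus far above fibroblasts but much less above haematopoietic cells in Krt18. In the order of the 13 classes, cTEC did not overlap with the class that followed for either gene, whereas the neighbours Aire TEC and muscle in Krt18 and Ccl21a TEC and muscle in Krt8 did not stand apart beyond their spread.

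**Figure D1:**
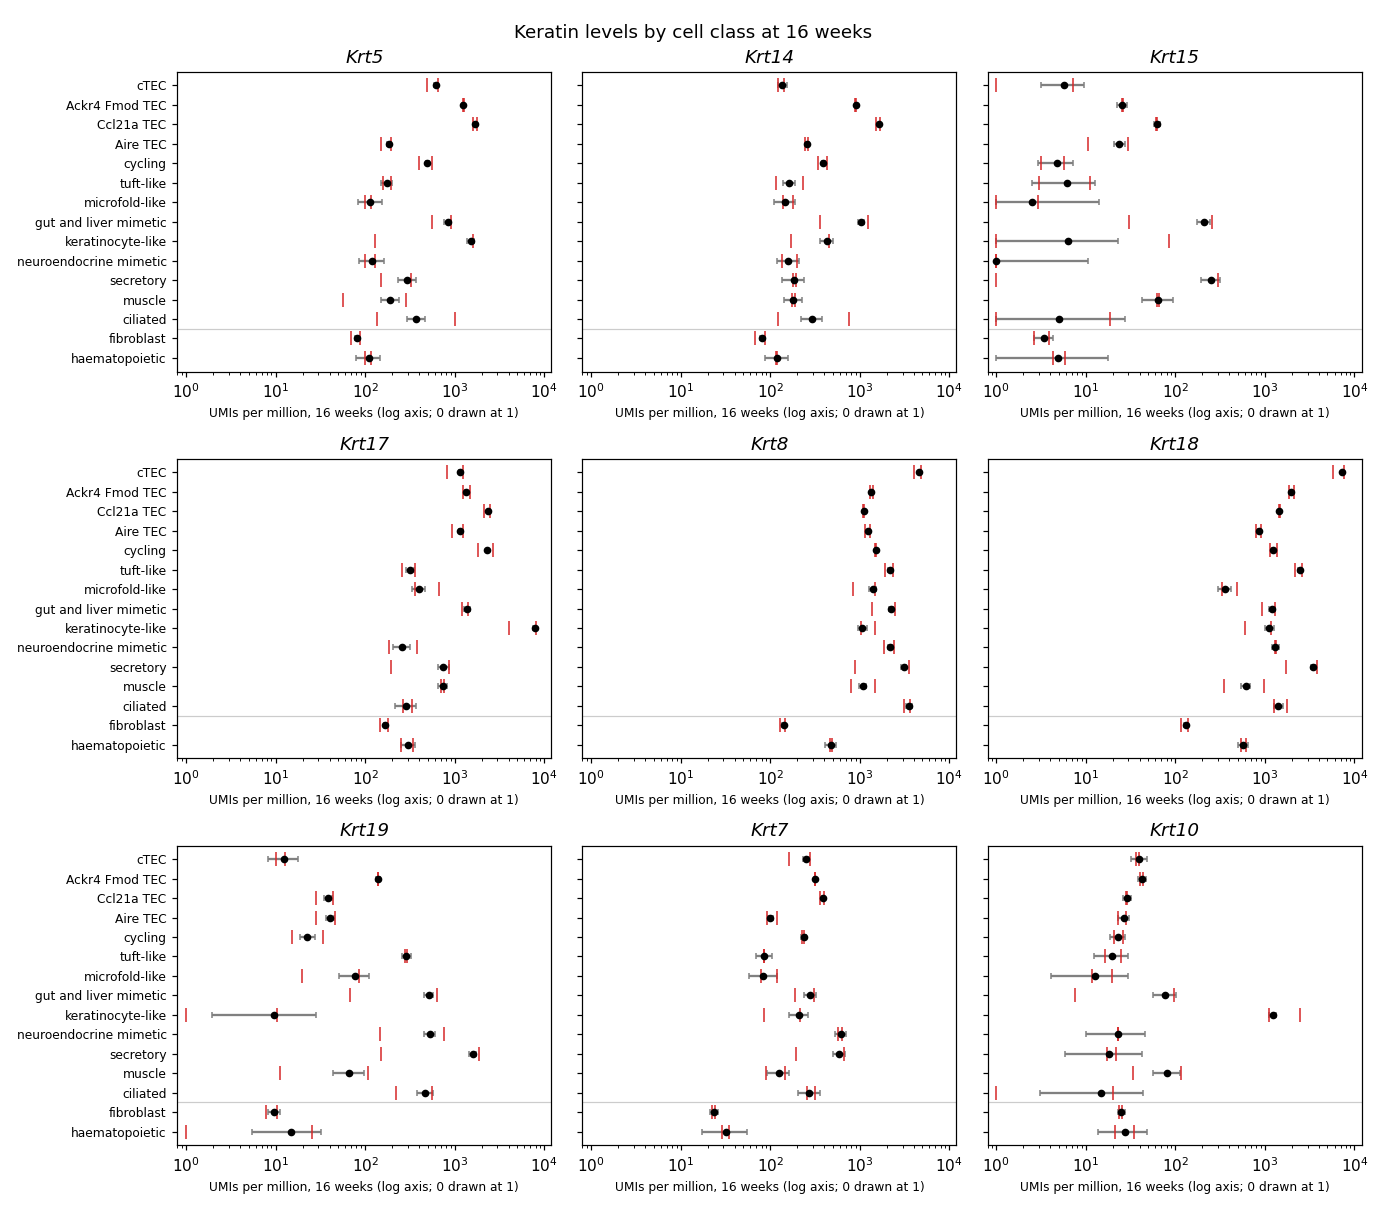
Level of each of the 9 keratins in 13 TEC classes, and in fibroblasts and haematopoietic cells below the line, at 16 weeks, in CPM on a log axis. Black points are the sum of both wells with its exact Poisson 95% interval and red ticks are the 2 wells; cTEC lead Krt8 (4640) and Krt18 (7280), Ccl21a TEC lead Krt5 (1700) and Krt14 (1640), and keratinocyte-like cells lead Krt17 (7790) and Krt10 (1220).

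Krt17 and Krt7 did not follow the division into cortex and medulla. Krt17 was present at 2140 and 2470 in 16-week Ccl21a TEC, 824 and 1250 in cTEC and 944 and 1230 in Aire TEC, with 147 and 178 in fibroblasts and 251 and 343 in haematopoietic cells. The pooled level of tuft-like cells (318) was within the latter. The wells of cTEC and Aire TEC overlapped. Krt7 stood at 362 and 396 in Ccl21a TEC, 162 and 277 in cTEC and 118 and 92.2 in Aire TEC, with 22.6 and 24.1 in fibroblasts and 29.2 and 34.3 in haematopoietic cells. Aire TEC were the lowest of these 3 classes.

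Krt15, Krt19 and Krt10 were low in the main classes and high in a few mimetic cells. Krt19 stood at 281 and 293 in tuft-like cells and at 138 and 139 in Ackr4 Fmod TEC, against 28.3 and 43.2 in Ccl21a TEC and 10.1 and 12.9 in cTEC. Fibroblasts held 7.85 and 10.5 and haematopoietic cells 0 and 6 UMIs, so that cTEC were near this background. Among the small classes, secretory TEC (25 cells) had 1600 of Krt19 (interval 1450 to 1750), though the wells, with 5 and 20 cells, gave 152 and 1880. Krt15 stood at 60.1 and 63.0 in Ccl21a TEC and at 25.8 and 25.2 in Ackr4 Fmod TEC. In cTEC it had 0 UMIs in well 1 and 14 UMIs in well 2, which is 7.22 CPM, beside 2.62 and 3.84 in fibroblasts and 1 UMI in each well of haematopoietic cells, while secretory TEC had 252 in all, from 1 of the 2 wells. Krt10 was at 1220 in the 20 keratinocyte-like cells (2440 and 1120, from 2 and 18 cells). In cTEC (36.5 and 39.7), Ccl21a TEC (28.3 and 29.1) and Aire TEC (23.0 and 28.0), Krt10 was close to the 23.7 and 25.6 of fibroblasts and the 35.0 and 21.4 of haematopoietic cells.

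The mimetic classes also divided the remaining keratins. Of the 54 annotated keratin genes, 53 had a UMI in TEC, and the 6 most frequent besides the members were Krt16, Krt20, Krt23, Krt77, Krt13 and Krt79, with 541 to 1149 UMIs each. Keratinocyte-like cells held the stress keratin Krt16 at 578, Krt77 at 954, Krt23 at 450 and Krt79 at 191 CPM at 16 weeks. Krt20, a keratin of gut epithelium, stood at 616 in microfold-like cells. Krt13, a keratin of stratified mucosa, stood at 48.0 in Aire TEC and 88.1 in the 17 muscle cells. Keratinocyte-like cells also had Krt17 at 4030 and 8100, and keratins took 1.63% of their UMIs. Their Sbsn level, a cornification gene that named the class, was 2470.

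The partners of a pair were not counted in 1 ratio throughout. Krt18 exceeded Krt8 by a factor of 1.57 in 16-week cTEC, 1.48 in Ackr4 Fmod TEC, 1.32 in Ccl21a TEC and 1.12 in tuft-like cells. The order was turned in Aire TEC, with 0.697 Krt18 UMIs per Krt8 UMI (wells 0.689 and 0.7), and in cycling TEC (0.827), neuroendocrine mimetic TEC (0.596), gut and liver mimetic TEC (0.541), muscle (0.565), ciliated (0.40) and microfold-like cells (0.257, wells 0.581 and 0.229). The same ratio in fibroblasts was 0.923. At 1 week the wells of Aire TEC lay on both sides of equality (1.11 and 0.808), while fibroblasts had 1.49 and 1.32. For the basal pair, 16-week cTEC held 4.49 Krt5 UMIs per Krt14 UMI (wells 4.07 and 4.58, a log2 ratio of 2.11 that was 0.96 without correction between libraries, and with Krt14 at the level of haematopoietic cells), and 1-week cTEC held 3.57 (4.01 and 3.06). At 1 week as well, Krt14 of cTEC (25.6 CPM) was near that of haematopoietic cells (32.4). In this ratio Ccl21a TEC had 1.04, fibroblasts 1.01, haematopoietic cells 0.917 and Aire TEC 0.702 at 16 weeks. Keratinocyte-like cells had 3.54, with most of these UMIs from well 2.

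**Figure D2:**
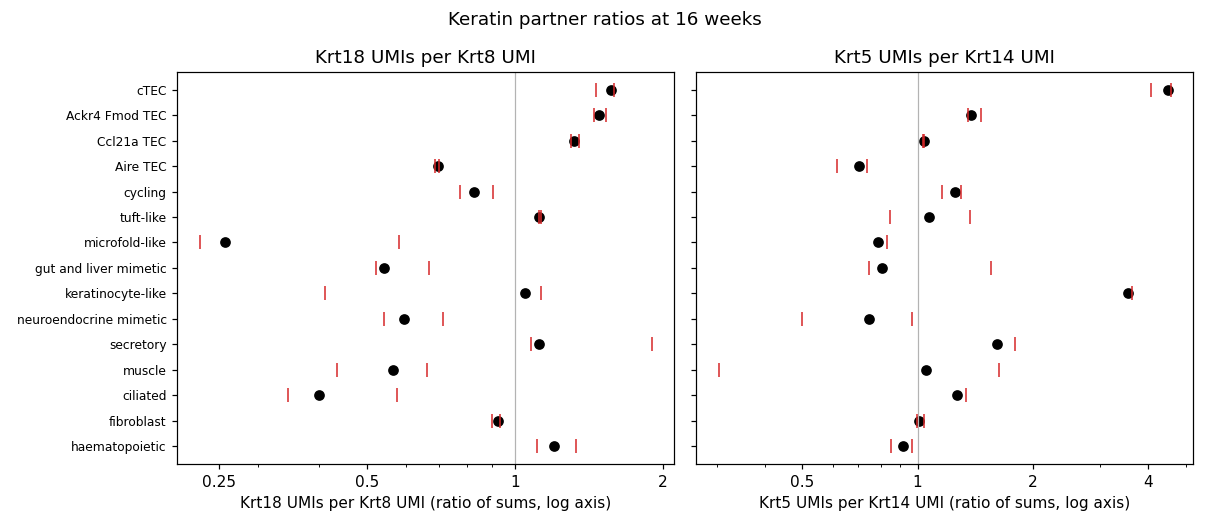
Krt18 UMIs per Krt8 UMI (left) and Krt5 UMIs per Krt14 UMI (right) in each class at 16 weeks, on log axes with a line at equality. Black points are both wells summed and red ticks single wells, left out where a well had too few UMIs of either gene; Aire TEC (0.697) and microfold-like cells (0.257) lie left of equality in the first panel, and cTEC (4.49, lower when the class was drawn without correction between libraries) and keratinocyte-like cells (3.54) far right in the second.

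Summed over the 6 type I and the 3 type II members, type I exceeded type II UMIs by a factor of 1.75 in Ccl21a TEC, 1.57 in cTEC and 1.55 in Aire TEC at 16 weeks, and by 3.8 in keratinocyte-like cells. Type II was in excess in neuroendocrine mimetic TEC (0.776), microfold-like cells (0.624) and ciliated cells (0.593).

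Between the ages, levels of the basal pair were higher and those of the simple pair lower at 16 weeks in each of the 3 main classes. In cTEC, Krt5 was at 96.6 and 84.6 in the 1-week wells and at 494 and 645 in the 16-week wells, a mean log2 difference of 2.64 ± 0.30 (SD over wells, n = 2 per age, from 1 pool each). Krt14 in cTEC went from 24.1 and 27.6 to 122 and 141 (2.34 ± 0.20). In Ccl21a TEC, Krt5 stood at 675 and 1000 at 1 week, a difference of 1.02 ± 0.42, and Krt14 at 593 and 616, a difference of 1.41 ± 0.12. Aire TEC differed by 1.69 ± 0.54 in Krt5 and by 1.55 ± 0.25 in Krt14. No wells of the 2 ages overlapped in these 6 comparisons. The classes were made of different clusters at the 2 ages. One cluster gave 115 of the 166 Ccl21a TEC at 1 week but 194 of 1578 at 16 weeks, and the largest cluster of this class held 0 cells at 1 week and 586 at 16 weeks. Of the 2 cTEC clusters the deeper held 719 of 1261 cells at 1 week and 54 of 152 at 16 weeks.

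Krt8 in cTEC stood at 5910 and 5720 at 1 week, with a log2 difference of -0.41 ± 0.19 at 16 weeks, and Krt18 at 9710 and 8770, with -0.47 ± 0.29. The differences were larger in Ccl21a TEC (-0.89 ± 0.04 for Krt8 and -1.05 ± 0.07 for Krt18) and in Aire TEC (-0.81 ± 0.33 and -1.25 ± 0.14). Krt7 in cTEC was lower by -0.94 ± 0.55. Krt17 in Ccl21a TEC overlapped between the ages (2470 and 2540 at 1 week), whereas in cycling TEC it was higher by 1.44 ± 0.51. Of the cycling cells 216 of 289 at 1 week but 40 of 281 at 16 weeks were in a cluster that also held cTEC markers, and the others were in clusters that also held Aire TEC markers. Krt19 in Ccl21a TEC was higher by 3.01 ± 0.95, although the 1-week wells held 3 and 6 UMIs of it.

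The same genes moved in the same direction in cells that should not express them. In fibroblasts the log2 difference of 16 weeks minus 1 week was 2.54 ± 0.22 for Krt5, 2.56 ± 0.40 for Krt14, -1.72 ± 0.14 for Krt8 and -2.33 ± 0.26 for Krt18, which was as large as or larger than in TEC except for Krt5 in cTEC. Krt5 was low in fibroblasts at 1 week (13.4 in both wells), but the simple pair was not low outside TEC. At 1 week Krt8 and Krt18 stood at 455 and 641 in fibroblasts and at 1890 and 2310 in haematopoietic cells, beside 2130 and 2010 in Aire TEC. Krt18 of haematopoietic cells was thus above that of Aire TEC. Krt14 of haematopoietic cells stood at 32.4 at 1 week and 119 at 16 weeks, beside 25.6 and 137 in cTEC. The part of this background in the age differences of TEC was not tested, and age, pool and library cannot be told apart.

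**Figure D3:**
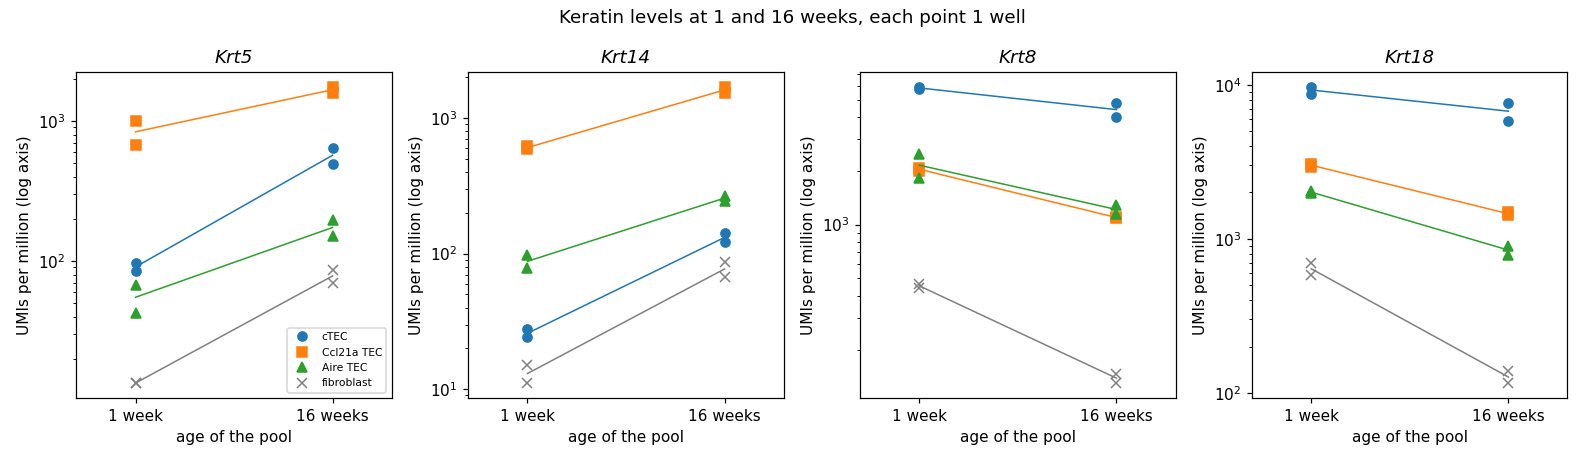
Levels of Krt5, Krt14, Krt8 and Krt18 in the wells of the 1-week and 16-week pools, in CPM on log axes, with lines through the class means. Krt5 and Krt14 lie higher and Krt8 and Krt18 lower at 16 weeks in cTEC, Ccl21a TEC and Aire TEC, and the fibroblast crosses move the same way, with steeper slopes for Krt8 and Krt18 than in these 3 classes.

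The levels of 16-week cTEC also depended on how the class was drawn. Krt5 was higher in Ccl21a TEC than in cTEC by 1.56 on the log2 scale at 16 weeks and Krt17 by 1.18. Without correction between libraries before clustering, which put 202 cells in place of 152 in the class, these differences were -0.193 and -0.006, and the age difference of Krt5 in cTEC was 4.57. When 16-week cTEC were taken as TEC with at least 1 Psmb11 UMI after thinning to 2000 UMIs per cell, a choice made after the data were seen, the age difference of Krt5 was 3.27. The ratio of Krt5 to Krt14 in 16-week cTEC moved as well, from 2.11 on the log2 scale to 0.96 without correction, 1.27 with a marker level of 0.1, 1.32 with cTEC taken by a Psmb11 UMI, and 1.41 to 1.45 with doublets kept, with keratins kept in the clustering or as a mean over cells. The order of Krt8 between these classes did not turn under any alternative run (-1.44 to -2.23, Ccl21a TEC minus cTEC).

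To test keratins between groups that were divided without RNA, TEC were gated on the tags of the lectin UEA1, which marks medullary TEC, and of MHCII, CD80 and Sca1. The TEC that entered the gates had themselves been chosen by RNA clusters. The study further divides UEA1- cells by CD83 and CD40, which was not done here, so that its cortical populations are merged in the UEA1- gates. UMIs were summed per pool and gate, which gave 8 sums of 60 to 1318 cells, and compared with edgeR's quasi-likelihood test with the pool as a block and Benjamini-Hochberg adjustment over 17927 genes. The UEA1- Sca1- gate held 81.6% cTEC at 1 week but 26.2% at 16 weeks, when 36.2% of it were Ackr4 Fmod TEC and 16.1% Aire TEC. The UEA1+ MHCII-low CD80-low Sca1+ gate held 68.8% and 91.4% Ccl21a TEC, and the UEA1+ MHCII-high CD80-high gate held 44.9% and 65.0% Aire TEC. Unnamed TEC made up 24.7% and 21.3% of these UEA1+ gates at 1 week. The mix of classes in the gates thus differed between the ages, and its part in the results was not tested.

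Basal keratins were higher and simple keratins lower in UEA1+ MHCII-low CD80-low Sca1+ than in UEA1- Sca1- cells. In this comparison 8.0% of all genes passed the test, 3.3% higher and 4.7% lower, and of the members 6 of 9 passed, 4 higher and 2 lower. Krt14 stood at 1100 and 727 CPM in the 1-week wells and at 1500 and 1740 in the 16-week wells of the first gate, against 45.4 and 46.8 and 433 and 308 in the second. The gates did not overlap at either age. Krt14 rose by a fitted log2 difference of 3.26 ± 0.45 (SE derived from the F statistic of the test, edgeR adjusted p = 0.00657) and Krt5 by 1.89 ± 0.35 (0.0174). In single wells Krt14 differed by 4.60 and 3.96 at 1 week and by 1.79 and 2.50 at 16 weeks. Krt5 differed by 3.13 and 2.60 at 1 week and by 0.73 and 1.17 at 16 weeks. Krt15 (2.68 ± 0.43, edgeR adjusted p = 0.0107) and Krt17 (0.70 ± 0.16, 0.0329) rose as well. Krt15 rested on few UMIs, in the first gate 6 and 12 at 1 week and 91 and 380 at 16 weeks. The second gate held 49 and 11, and 33 and 31, and the Krt15 log2 differences of single wells ran from 0.59 to 5.40.

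The simple pair moved the other way. Krt8 stood at 1530 and 1460 at 1 week and at 1070 and 1080 at 16 weeks in UEA1+ MHCII-low CD80-low Sca1+ cells, against 5300 and 5080 and 2420 and 3170 in UEA1- Sca1- cells, a log2 difference of -1.68 ± 0.22 (edgeR adjusted p = 0.00561). Krt18 differed by -1.89 ± 0.27 (edgeR adjusted p = 0.00719). Every well showed these directions for Krt5, Krt14, Krt15, Krt17, Krt8 and Krt18. Krt19 (0.46 ± 0.35), Krt7 (0.40 ± 0.18) and Krt10 (-0.76 ± 0.34) did not pass, with edgeR adjusted p from 0.225 to 0.487. With sums per well, which treat wells of the same mice as replicates, Krt7 passed here (0.514, edgeR adjusted p = 0.0424).

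UEA1+ MHCII-high CD80-high cells, in which Aire TEC were the most frequent class, also had less of the simple pair than UEA1- Sca1- cells but no change of the basal pair that passed the test. Of all genes 29.9% passed here (15.9% higher and 14.0% lower), and of the members 5 of 9, 2 higher and 3 lower. Krt18 differed by -2.01 ± 0.27 (edgeR adjusted p = 0.00266), from 8580 and 7700 to 3250 and 2390 at 1 week and from 3330 and 4830 to 811 and 957 at 16 weeks. Krt8 differed by -1.22 ± 0.22 (edgeR adjusted p = 0.00558) and Krt7 by -0.84 ± 0.18 (0.0108). Krt15 rose by 2.17 ± 0.41 (edgeR adjusted p = 0.00687), although 16-week well 1 went the other way, and Krt19 rose by 1.11 ± 0.31 (0.0301), with -0.048 in the same well. Krt5 (-0.55 ± 0.34, edgeR adjusted p = 0.261), Krt14 (0.73 ± 0.41, 0.219), Krt17 (-0.02 ± 0.16, 0.95) and Krt10 (-0.17 ± 0.30, 0.717) did not pass. With no filter except 1 UMI, Krt14 (0.705, edgeR adjusted p = 0.00624) and Krt5 (-0.572, 0.035) passed here.

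Between both UEA1+ gates the basal pair separated the cells and the simple pair did not pass. Of all genes 15.1% passed (8.77% higher and 6.36% lower in MHCII-high CD80-high cells), and of the members 4 of 9, all lower. Krt5 fell from 857 and 575 to 135 and 101 at 1 week and from 1420 and 1670 to 364 and 386 at 16 weeks, a log2 difference of -2.44 ± 0.36 (edgeR adjusted p = 0.00583). Krt14 differed by -2.54 ± 0.43 (edgeR adjusted p = 0.00971), Krt7 by -1.24 ± 0.18 (0.00592) and Krt17 by -0.71 ± 0.16 (0.0213). Each of the 4 was lower in 4 of 4 wells. Krt8 (0.46 ± 0.21), Krt18 (-0.12 ± 0.26), Krt15 (-0.51 ± 0.42), Krt19 (0.65 ± 0.36) and Krt10 (0.60 ± 0.33) had edgeR adjusted p from 0.179 to 0.798. With sums per well, again with wells of the same mice as replicates, Krt8 passed as higher (0.472, edgeR adjusted p = 0.0269).

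UEA1- cells with and without Sca1 gave no call among the members by edgeR (0 of 9, against 0.00558% of all genes). The sizes were nevertheless not small for Krt15 (1.86 ± 0.42, edgeR adjusted p = 0.226), Krt19 (1.49 ± 0.32, 0.207) and Krt14 (1.46 ± 0.42, 0.372). Krt8 (-0.80 ± 0.21, 0.331), Krt18 (-0.83 ± 0.26, 0.422), Krt5 (0.73 ± 0.34, 0.663), Krt17 (-0.20 ± 0.16, 0.856), Krt10 (-0.16 ± 0.32, 0.981) and Krt7 (-0.02 ± 0.18, 1.0, all edgeR adjusted p) did not pass either. Without adjustment, 1427 genes had p under 0.05, and DESeq2 called 45 genes higher and 62 lower. With no filter except 1 UMI, Krt14, Krt15 and Krt19 passed as higher and Krt8 and Krt18 as lower (edgeR adjusted p from 1.09e-08 to 0.00412), and Krt5 as higher (0.0486). With sums per well, which treat wells of the same mice as replicates, Krt8 (edgeR adjusted p = 0.04) and Krt19 (0.037) passed. The UEA1- Sca1+ gate held 60 cells at 1 week and 846 at 16 weeks, of which 70.2% were Ackr4 Fmod TEC.

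**Figure D4:**
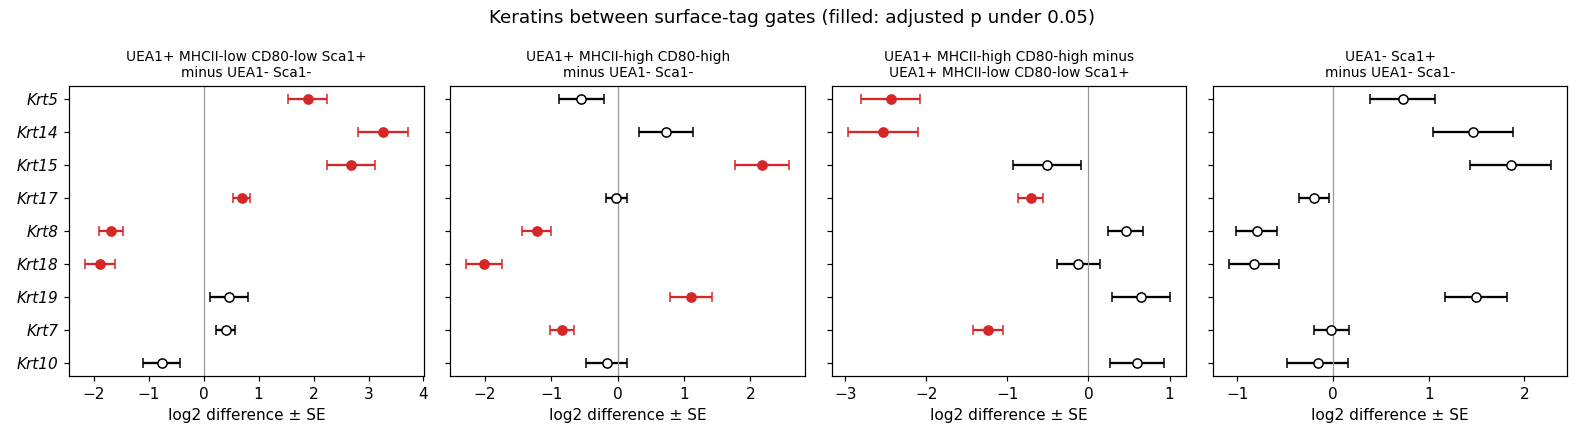
Fitted log2 difference ± SE of each member in the 4 comparisons between surface-tag gates, with a line at 0. The fit was edgeR on 8 sums with the pool as a block, and the SE was derived from the F statistic of the test. Filled red points passed at an adjusted p under 0.05, which were 6, 5, 4 and 0 of 9 members from left to right.

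Of these 36 tests of members 15 passed, and all 15 were lost without the pool as a block and with tags scaled to the total tag count in place of the centred log ratio, 2 settings under which no gene of the table passed in any comparison. Without 16-week well 2, Krt5 (edgeR adjusted p = 0.0702), Krt15 (0.273) and Krt17 (0.0684) were lost in the first comparison and Krt15, Krt19 and Krt7 in the second. Without 1-week well 1, Krt17 was lost in the first comparison (0.101) and between the UEA1+ gates (0.0568), and without 1-week well 2, Krt19 (0.0544) and Krt7 (0.1) in the second.

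The calls among the remaining keratins were all in UEA1+ MHCII-high CD80-high cells. Of 45 other annotated keratins 30 were tested, and in UEA1+ MHCII-high CD80-high cells 21 were higher and 0 lower than in UEA1- Sca1- cells, beside 15.9% and 14.0% of all genes. Against UEA1+ MHCII-low CD80-low Sca1+ cells 12 were higher and 0 lower, beside 8.77% and 6.36%. A gene could pass the filter on low counts through 1 gate alone, and a gene near 0 in the other gates could then be called in 1 direction only, so that these counts are a description of the genes that passed the filter. In the other 2 comparisons none passed. Krt77 rose by 3.86 ± 0.47 (edgeR adjusted p = 0.00223), Krt20 by 3.67 ± 0.65 (0.00569), Krt23 by 3.63 ± 0.85 (0.0151), Krt16 by 3.13 ± 0.55 (0.00547) and Krt79 by 2.67 ± 0.52 (0.00768) against UEA1- Sca1- cells. Krt13 differed by 2.30 ± 0.83 (edgeR adjusted p = 0.0676).

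Genes that anchor keratin filaments were followed by fixed lists. Desmosome genes, which tie keratins to cell contacts, had 13 members tested. The shares of all genes that were higher and lower were 3.3% and 4.7% in the first comparison, 15.9% and 14.0% in the second and 8.77% and 6.36% between the UEA1+ gates, and the counts of each list are to be read against them. In UEA1+ MHCII-low CD80-low Sca1+ against UEA1- Sca1- cells 2 rose and 0 fell, the cadherin Dsg1a (3.77 ± 0.58, edgeR adjusted p = 0.00887) and the plakophilin Pkp2 (3.21 ± 0.67, 0.025). In UEA1+ MHCII-high CD80-high cells 3 rose and 5 fell against UEA1- Sca1- cells, with Dsg1a at 4.39 ± 0.56 (edgeR adjusted p = 0.00232), Dsc3 at -1.60 ± 0.23 (0.00345) and the plaque protein Dsp at -1.03 ± 0.20 (0.00814). Against UEA1+ MHCII-low CD80-low Sca1+ cells 0 rose and 4 fell, among them Perp (-1.19 ± 0.18, edgeR adjusted p = 0.00615) and Dsc3 (-1.05 ± 0.24, 0.0257).

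Genes of hemidesmosomes and basement membrane contact (12 tested) were lower in UEA1+ MHCII-high CD80-high than in UEA1+ MHCII-low CD80-low Sca1+ cells for 7 and higher for 0, with a median of -1.06 beside 0.01 over all genes. The laminin chains Lamb3 (-1.97 ± 0.24, edgeR adjusted p = 0.00299) and Lama3 (-1.87 ± 0.21, 0.00279) led. In UEA1+ MHCII-low CD80-low Sca1+ against UEA1- Sca1- cells 3 rose and 0 fell. In UEA1+ MHCII-high CD80-high against UEA1- Sca1- cells 1 rose, Col17a1 (2.14 ± 0.48, 0.013, edgeR adjusted p), and 4 fell, among them Lamb3 (-1.72 ± 0.23, 0.00259). The keratin linker Plec differed by 0.27, -0.46 and -0.73 in the first 3 comparisons, with edgeR adjusted p = 0.0679 between the UEA1+ gates.

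Cornified envelope and keratinocyte differentiation genes (17 tested) were called mostly in UEA1+ MHCII-high CD80-high cells. There 14 rose and 0 fell against UEA1- Sca1- cells, beside 15.9% and 14.0% of all genes, again among genes that could pass the filter through 1 gate, led by the filaggrin gene Flg (5.26 ± 0.87, edgeR adjusted p = 0.00466) and the protease inhibitor gene Spink5 (4.50 ± 0.67, 0.00358). Against UEA1+ MHCII-low CD80-low Sca1+ cells 9 rose and 0 fell, beside 8.77% and 6.36%, led by the transglutaminase Tgm3 (4.48 ± 1.06, edgeR adjusted p = 0.0275). In UEA1+ MHCII-low CD80-low Sca1+ against UEA1- Sca1- cells 1 rose, Krtdap (4.49 ± 0.61, edgeR adjusted p = 0.00625), and 0 fell.

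Regulators of basal and thymic epithelium (16 tested) were mixed. In UEA1+ MHCII-low CD80-low Sca1+ against UEA1- Sca1- cells 3 rose and 2 fell, the latter the TEC factors Pax1 (-1.78 ± 0.27, edgeR adjusted p = 0.00881) and Foxn1 (-1.34 ± 0.25, 0.0182). In UEA1+ MHCII-high CD80-high cells 6 rose and 4 fell against UEA1- Sca1- cells, beside 15.9% and 14.0% of all genes. Against UEA1+ MHCII-low CD80-low Sca1+ cells 1 rose, near the 8.77% of all genes, and 4 fell, beside 6.36%. Trp63, the master regulator of basal cells and of Krt5 and Krt14 in epidermis, differed by 0.10 (edgeR adjusted p = 0.887) in the first comparison, in which Krt5 and Krt14 rose, and by -1.42 ± 0.29 (0.0087) and -1.52 ± 0.29 (0.0145) in UEA1+ MHCII-high CD80-high cells against UEA1- Sca1- and UEA1+ MHCII-low CD80-low Sca1+ cells. Of 8 other cytoskeleton genes, Fam83h, which binds keratins, was the single call, with -0.88 ± 0.24 (edgeR adjusted p = 0.0263) in UEA1+ MHCII-high CD80-high against UEA1- Sca1- cells. Vim, the filament of mesenchymal cells, differed by 1.31 ± 0.49 (edgeR adjusted p = 0.153) and 1.36 ± 0.47 (0.0593) in the first 2 comparisons. No gene of these lists passed between UEA1- cells with and without Sca1.

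Cells with both keratin groups were counted after each cell was thinned to 2000 UMIs, which set all cells to 1 depth. A cell counted when it had at least 1 UMI of Krt5 or Krt14 and at least 1 of Krt8 or Krt18. At 16 weeks this held for 88.0% of Ccl21a TEC (exact binomial 95% interval 86.3 to 89.6), 75.2% of Ackr4 Fmod TEC (72.1 to 78.2), 68.3% of cycling TEC (62.5 to 73.7), 53.4% of Aire TEC, 51.3% of cTEC (43.1 to 59.5) and 46.4% of tuft-like cells (37.0 to 56.1). In the other mimetic classes it held for 44.4% (9 ciliated cells) to 80.0% (20 keratinocyte-like cells, 56.3 to 94.3). In classes that should lack keratins it held for 15.2% of fibroblasts, 26.6% of endothelial cells and 48.9% of haematopoietic cells (34.1 to 63.9), whose cluster also held epithelial markers, with median depths before thinning of 11233, 6665.5 and 3192 UMIs. Median depths were 9180 in cTEC, 4538.5 in Ccl21a TEC and 6324 in Aire TEC. The shares of cTEC, Aire TEC and tuft-like cells at 16 weeks thus lay within the interval of the 47 haematopoietic cells and above the share of fibroblasts. For cTEC this depended on how the class was drawn, with means over the wells of 50.5% here, 63.6% by a Psmb11 UMI and 81.8% without correction between libraries, the last outside that interval. Their Krt5 level (494 and 645) was also above that of haematopoietic cells (99.1 and 116).

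At 1 week the share was 68.7% in Ccl21a TEC (61.0 to 75.6), 34.3% in cycling TEC, 18.9% in Aire TEC (12.3 to 26.9) and 17.7% in cTEC (15.6 to 19.9). It was 5.79% in fibroblasts, 13% in endothelial cells and 22.1% in haematopoietic cells (15.1 to 30.5). The wells of an age were close to each other in 1-week cTEC (18.4% and 16.7%) and in 16-week Ccl21a TEC (87.1% and 88.4%). They were further apart in Aire TEC, with 23.5% and 13.0% at 1 week and 46.7% and 55.7% at 16 weeks. Without thinning the shares of cTEC were 55.4% at 1 week and 87.4% at 16 weeks as means of the wells.

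With at least 2 UMIs of each group the shares fell but kept Ccl21a TEC first. At 16 weeks they were 64.6% in Ccl21a TEC, 49.7% in Ackr4 Fmod TEC, 28.3% in cTEC (21.3 to 36.2), 19.7% in Aire TEC and 15.2% in tuft-like cells, with 1.75% in fibroblasts, 4.69% in endothelial cells and 17.0% in haematopoietic cells (7.65 to 30.8). The other mimetic classes at 16 weeks ranged from 8.57% in microfold-like to 55.0% in keratinocyte-like cells (31.5 to 76.9). At 1 week cTEC had 3.09% and Ccl21a TEC 42.2%, beside 0.263% in fibroblasts and 4.1% in haematopoietic cells. The intervals of 16-week cTEC and haematopoietic cells overlapped also by this count.

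**Figure D5:**
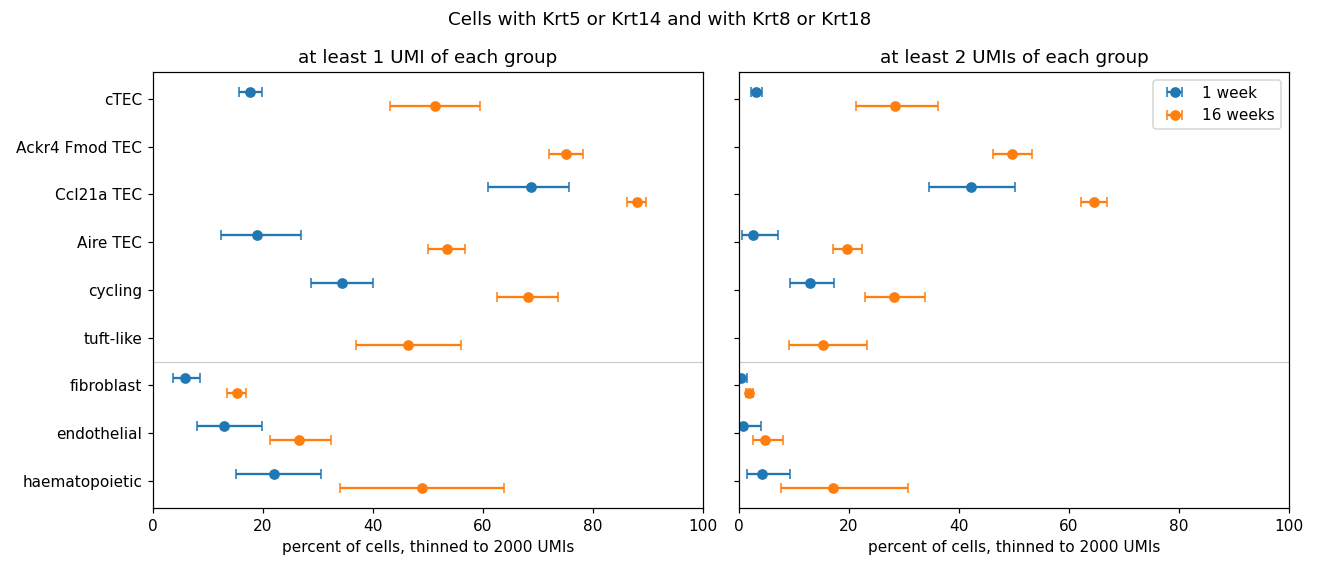
Share of cells with Krt5 or Krt14 and with Krt8 or Krt18, in percent, after thinning to 2000 UMIs, with exact binomial 95% intervals that cover counting error only, for at least 1 UMI (left) and at least 2 UMIs (right) of each group. Ccl21a TEC have the highest share at both ages (68.7% and 88.0% on the left), and below the line the 16-week haematopoietic share (48.9%) reaches those of cTEC and Aire TEC. Of the mimetic classes only the tuft-like cells are drawn.

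The share with both groups was close to the product of the single shares in the TEC classes. In 16-week cTEC 51.3% of cells had a basal keratin and 99.3% a simple keratin, with a product of 51.0% beside the 51.3% counted. Ccl21a TEC gave a product of 87.6% beside 88.0%, and Aire TEC 52.8% beside 53.4%. Since nearly every TEC had a simple keratin, the count of cells with both groups was in practice the count of cells with Krt5 or Krt14. Few cells had the basal group alone, 5.32% of 16-week Ccl21a TEC and 0.0% of cTEC at either age.

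Cells with both groups were set beside cells with the simple group alone by surface tags and depth. In 1-week Ccl21a TEC the median centred log ratio of Sca1 was 3.42 and 3.24 (wells 1 and 2) in cells with both and 1.68 and 2.37 in cells with the simple group alone. At 16 weeks the median was 5.31 and 5.16 against 5.35 and 5.12. The groups held 58 and 56 against 29 and 22 cells at 1 week, and 404 and 985 against 24 and 68 at 16 weeks. In 1-week cTEC the cells with both were shallower before thinning (median 6723 and 6939 UMIs, against 10386 and 11466). This was the case in both wells. In 16-week cTEC the wells went opposite ways, with 5449 against 9180 UMIs in well 1 and 13036 against 7830 in well 2. In 16-week Ackr4 Fmod TEC the median centred log ratio of CD49a was 1.84 and 1.86 in cells with both and 2.65 and 2.49 in cells with the simple group alone, and that of Podoplanin 2.31 and 2.19 against 2.83 and 2.71. The part of depth in these shares was not tested.

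Across 23 units of TEC class and library in 9 classes, Krt5 and Krt14 had a Pearson r of 0.862 on the scale of log2(CPM + 10), Krt8 and Krt18 of 0.841, Krt17 and Krt7 of 0.692, and Krt14 and Krt8 of -0.691. The units share libraries, and these values are descriptions. Of 11442 genes, those most like Krt5 were Plek2 (0.913), Igfbp4 (0.905) and Crim1 (0.894). Igfbp4 (0.925), Apoe (0.872) and Fuom (0.865) were most like Krt14. For the simple pair they were Isg20 (0.919), 1810037I17Rik (0.898) and Kif3b (0.892) for Krt8 and Nin (0.941), Tsc22d1 (0.933) and Ift20 (0.932) for Krt18. Krt7 was nearest to Zfp36l1 (0.906), Ifitm3 (0.895) and Rassf9 (0.884), and Krt19 to Daglb (0.934), AI661453 (0.901) and Plekha6 (0.897). For Krt15 they were St3gal1 (0.877), Mecom (0.864) and Sdc1 (0.84), for Krt17 Ggt5 (0.828), Bcl11b (0.81) and H13 (0.81), and for Krt10 Zfp930 (0.83), Cebpa (0.829) and Sptssa (0.802).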

How the data were processed

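The authors aligned reads with STARsolo 2.7.9a to mm10 under Ensembl 102 gene models and kept cells with at least 2000 UMIs, and they deposited whole-number UMI counts per gene and cell and counts of 27 surface tags, neither normalised. The labels and the methods name different versions of the 3′ kit. Of 55487 gene identifiers 55227 matched a symbol in GENCODE M21. The methods list the settings that differed from the tool's defaults, and the strand is not among them. Reads shared by near-identical genes could not be checked.

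Predicted doublets (scanpy 1.11.5) were removed at 0.8% per 1000 cells, 253 in all, since the automatic limit marked 12. Cells were clustered on 30 principal components of 2000 variable genes with keratins left out (10 neighbours, igraph 0.11.9), TEC after correction by mutual nearest neighbours between libraries and between cells above and below 12000 UMIs. A name needed 3 markers at no less than 0.25 of the highest cluster (0.1 for all cells), and shallow epithelial clusters (median UMIs below 3000) did not enter. Tags were taken as centred log ratios and gates set where 2-component mixtures (scikit-learn 1.9.0) gave equal weight. The 787 TEC in no gate were not tested. Sums per pool and gate (at least 20 cells) were tested in R 4.3.3 with edgeR 4.0.16 (TMM, filterByExpr, pool as block, 3 residual degrees of freedom, Benjamini-Hochberg, threshold 0.05), after a check on simulated data. DESeq2 1.42.0 was an alternative. The block is the pool: gates of a pool share mice and wells, while the well numbers name wells and pair nothing between ages. Intervals cover counting error only.

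The members, the gene lists and the marker lists were chosen with earlier results of these data known. The text names all 9 members, the 6 other keratins with the most UMIs in TEC, genes among the 2 with the largest difference in each direction of each fixed list, and Trp63, Dsp, Plec and Vim, and some genes that this rule takes are not reported here. Naming levels, the doublet rate and the depth limit were set with the data in view.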

Additional observations from a re-analysis of the deposited data

Results flagged for a closer look

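In 3 of the 36 member tests, every well of 1 age went one way and every well of the other age the opposite way, and the difference between the ages was not tested. Krt5 in UEA1+ MHCII-high CD80-high minus UEA1- Sca1- cells had a mean log2 difference over wells of 0.279 at 1 week and -1.088 at 16 weeks. Krt10 in the same comparison had -0.668 at 1 week and 0.412 at 16 weeks. Krt18 in UEA1+ MHCII-high CD80-high minus UEA1+ MHCII-low CD80-low Sca1+ cells had 0.525 at 1 week and -0.673 at 16 weeks. The UEA1- Sca1- gate held 81.6% cTEC at 1 week and 26.2% at 16 weeks, and the UEA1+ MHCII-high CD80-high gate 44.9% and 65.0% Aire TEC.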

How the results depend on the processing

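Levels and shares here are log2 differences or means over the 2 wells of an age. The age difference in cTEC was 2.64 for Krt5, 2.34 for Krt14, -0.41 for Krt8 and -0.47 for Krt18. The difference of Ccl21a TEC minus cTEC at 16 weeks was 1.56 for Krt5, 3.62 for Krt14, -1.997 for Krt8 and 1.18 for Krt17, that of Ccl21a TEC minus Aire TEC 3.27 for Krt5, and Krt5 over Krt14 in 16-week cTEC 2.11. Without correction between libraries the age differences were 4.57 (Krt5), 4.72 (Krt14) and -0.70 (Krt8), the Ccl21a TEC minus cTEC differences -0.193 (Krt5, turned), 0.72 (Krt14), -1.66 (Krt8) and -0.006 (Krt17, turned), and Krt5 over Krt14 0.96. With a marker level of 0.1 the age differences were 3.19 (Krt14), -0.79 (Krt8) and -0.81 (Krt18), the differences from cTEC 0.83 (Krt5), 1.94 (Krt14), -1.44 (Krt8) and 0.17 (Krt17), that from Aire TEC 2.91, and Krt5 over Krt14 1.27. With a marker level of 0.5 Krt14 differed from cTEC by 3.94 and Krt5 from Aire TEC by 3.72. With 20 neighbours Krt14 differed by 2.63 with age and by 3.29 from cTEC, Krt8 by -2.23 from cTEC, and Krt5 over Krt14 was 1.65. With doublets kept the differences from cTEC were 1.87 (Krt5), 3.04 (Krt14) and -1.55 (Krt8), with 1.41 for Krt5 over Krt14. With keratins kept in the clustering they were 1.96, 3.14 and -1.47, with 1.42. With shallow clusters kept Krt14 differed by 2.82 with age and by 3.17 from cTEC, Krt5 by 2.88 from Aire TEC, and Krt5 over Krt14 was 1.87. As means over cells Krt14 differed by 2.62 from cTEC, Krt5 by 2.53 from Aire TEC, and Krt5 over Krt14 was 1.45. With cTEC taken by a Psmb11 UMI, chosen after the data were seen, the age differences were 3.27 (Krt5), 2.90 (Krt14) and -0.67 (Krt8), and Krt5 over Krt14 1.32. Without 1 well at a time the ranges were 2.45 to 2.83 (Krt5 age), 2.23 to 2.45 (Krt14 age), -0.54 to -0.28 (Krt8 age), -0.66 to -0.27 (Krt18 age), 1.45 to 1.68 (Krt5 from cTEC), 3.59 to 3.65 (Krt14), -2.14 to -1.86 (Krt8), 0.98 to 1.38 (Krt17), 3.16 to 3.39 (Krt5 from Aire TEC) and 2.02 to 2.20 (Krt5 over Krt14). The causes were not tested.

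The share of cells with both keratin groups was 17.5% in 1-week cTEC and 50.5%, 87.7% and 51.2% in 16-week cTEC, Ccl21a TEC and Aire TEC. In this order it was 10.5%, 37.0%, 62.0% and 26.0% with Krt5 and Krt8 alone, 3.12%, 29.1%, 63.7% and 19.4% with at least 2 UMIs, 26.1%, 70.8%, 97.9% and 76.9% at 4000 UMIs and 55.4%, 87.4%, 97.4% and 89.5% without thinning. For 16-week cTEC it was 53.6% with doublets kept, 81.8% without correction and 63.6% by a Psmb11 UMI (21.9% at 1 week), and for Ccl21a TEC 88.9% with keratins kept in the clustering. Without 1 well the ranges were 16.7 to 18.4, 48.7 to 52.2, 87.1 to 88.4 and 46.7 to 55.7%.

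The test between gates called 592 genes higher and 843 lower (UEA1+ MHCII-low CD80-low Sca1+ minus UEA1- Sca1-), 2859 and 2503 (UEA1+ MHCII-high CD80-high minus UEA1- Sca1-), 1573 and 1141 (between the UEA1+ gates) and 1 and 0 (UEA1- Sca1+ minus UEA1- Sca1-). Without the pool as a replicate block, and with total-count tags, each of these counts was 0, and all 15 member calls were lost. Sums per well with the well as a replicate block gave 1892 and 1703, 3531 and 3263, 2652 and 2511, and 87 and 167, and kept all 15. This setting treats wells of the same mice as replicates. DESeq2 gave 889 higher in the first, 1654 lower in the second and 45 and 62 in the fourth, DESeq2 size factors 0 higher in the fourth, doublets kept 1 lower in the fourth, and no filter 1089 higher in the first, 2581 higher in the third and 210 and 260 in the fourth. These 4 kept all 15 member calls. With no filter 8 further member tests passed, and per well 4. DESeq2 size factors moved the split of calls in the second comparison to 3103 higher and 1712 lower and the all-gene median from -0.05 to 0.12. Without 1 well the ranges were 285 to 674 and 275 to 974, 1661 to 2695 and 1160 to 2556, 865 to 1442 and 647 to 1073, and 0 to 1 and 0 to 8.

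Of the members, uncalled differences changed sign as follows. In the first comparison Krt19 ranged from -0.035 (without 16-week well 2) to 0.762 without 1 well. In the second Krt17 was 0.144 by DESeq2 and with its size factors, 0.075 per well and -0.022 to 0.082 without 1 well. Krt10 was 0.001 with DESeq2 size factors, 0.005 without the block and 0.009 with total-count tags. In the third, Krt18 was 0.11 without the block and 0.20 with total-count tags, and Krt19 -0.092 with total-count tags. In the fourth, Krt7 was 0.048 by DESeq2, 0.046 with its size factors, 0.075 per well, 0.276 with total-count tags, 0.034 with doublets kept and -0.068 to 0.081 without 1 well. Each age was 1 pool, so no value here speaks of spread between mice, and the 152 cTEC at 16 weeks limit what their levels can show.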

Other observations

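Outside the epithelium, mesothelial cells had Krt19 at 1100 and 1260 CPM (UMIs per 1000000 UMIs) in the 1-week wells and at 634 in 16-week well 2, against 5.06 and 5.9 in 1-week fibroblasts. Their Krt14 was at 202 and 114 at 1 week, well above their Krt5, a ratio of Krt5 to Krt14 of 0.0902. Krt7 stood at 313 and 409 in the same wells.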
